A study of Mus musculus with 12 samples.

Results

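Medulloblastoma was compared with tumor-free cerebellum that carried the same Brca2 deletion, gene by gene across the transcriptome. The comparison used 6 of the 12 RNA sequencing libraries of the series, chosen by their labels alone: 3 medulloblastomas from the mice GB344, GB359 and GB370 (genotype Brca2-mut;Trp53-mut) and 3 cerebella from the mice GB361, GB508 and GB512 (genotype Brca2-mut;Trp53-WT), hereafter the tumors and the controls. In both groups Brca2 exons 3 to 4 were deleted in the nervous system by Cre recombinase under the human GFAP promoter, so the deletion reached only cells with a history of that promoter. Trp53 was deleted in every cell of the tumor mice and was intact in the control mice. Tumors were dissected when the animals reached a humane endpoint. The study describes the controls as matched in age to the tumors, without the age of each tumor mouse. The controls were whole cerebella taken at postnatal day 90, each from 1 mouse. Tumor growth and loss of Trp53 therefore changed together between the groups, and their shares in a difference cannot be told apart. The other 6 libraries were the cerebellum adjacent to each tumor and 3 tumor-free cerebella of genotype Brca2-WT;Trp53-mut. The latter were used for a check of the control genotype.

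Medulloblastoma is a malignant tumor of the cerebellum, and its Sonic hedgehog (SHH) subgroup arises from granule cell progenitors. These cells normally divide in the outer layer of the young cerebellum in response to SHH released by Purkinje cells, then leave the cell cycle, migrate inward and become granule neurons. BRCA2 acts in the repair of DNA breaks by homologous recombination and protects stalled replication forks, and p53 halts or removes cells with damaged DNA.

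Expression was measured in TPM, transcript abundance scaled so that each library sums to the same fixed total, so a rise of abundant genes lowers the share of the others. The number of reads behind each value was not given, and the precision of low values is unknown. TPM totals ran from 999821 to 999876 over the 6 libraries, with 15088 to 15488 genes at 1 TPM or more. A single short microRNA gene, Mir6236, took 4.39 to 11.51% of the total. Single libraries stood apart in ways that touch values below. GB512 stood apart among the controls, with 255 genes more than 1 log2 unit above the mean of the other 2, against 147 for GB361 and 96 for GB508. The level of Top2a, a gene of dividing cells, was 0.686, 0.431 and 8.42 TPM for GB361, GB508 and GB512 in that order, which is the order used for the controls throughout. GB361 was high in Ttr (transthyretin), a gene of the choroid plexus, at 842, 9.60 and 11.8 TPM over the controls. Gabra6 and Pcp2, which define granule and Purkinje neurons of the cerebellum, were abundant in all 3 controls. GB361 also differed from GB508 and GB512 in Scgb1a1, a secretory protein of the airway, at 52.01, 0.583 and 0 TPM over the controls and 42.5, 65.4 and 50.5 TPM in the tumors. GB370 was the only library with female levels of Xist, at 215 TPM against 0.21 or less in the other 5.

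The targeted genes were read first. Trp53 (chr11:69580348-69591873, GRCm38.p6) was listed at 128, 124 and 130.5 TPM in the tumors and 34.2, 33.1 and 37.2 TPM in the controls, the tumors in the order GB344, GB359 and GB370 here and throughout. All 3 tumors of the Trp53-mut genotype thus had more Trp53 RNA than any Trp53-WT control, with a log2 fold change of 1.84 ± 0.10 (adjusted p = 1.8e-05). In the Brca2-WT;Trp53-mut cerebella it was 48.6 ± 1.3 TPM (SD, n = 3). Brca2 (chr5:150522297-150570147) stood at 8.22, 14.6 and 10.9 TPM in the tumors and 3.79, 3.396 and 3.51 TPM in the controls, a log2 fold change of 1.39 ± 0.22 (adjusted p = 0.0011). Values summed over a whole gene do not tell a deleted transcript from an intact one, so neither gene checked the labels.

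Tumor and control differed over a large part of the transcriptome. Of 15767 genes tested with limma on log2(TPM + 1), 2255 (14.3%) were higher in the tumors and 3237 (20.5%) were lower, with an adjusted p (Benjamini-Hochberg) under 0.01 and a difference of 1 or more on the log2 scale. These genes are called higher and lower, or said to rise and fall, and the shares 14.3% and 20.5% are the background for each count of a gene list. The median log2 fold change over all genes was -0.034 (quartiles -0.835 and 0.644). In 5228 genes (33.2%) every tumor lay above every control, and in 5856 (37.1%) every tumor lay below. Because TPM after adding 1 compresses low values, a log2 fold change of a gene near 0 TPM understates its ratio. Without GB361, 2036 genes rose and 2850 fell. Against GB361 alone 90.4% of these rises and 97.5% of these falls were 1 log2 unit or more in the same direction. Both fits share the tumors, and the genes were picked by their calls in the first, so this likeness is no independent support. The libraries of a group came from separate mice, so the tests measure the spread between animals. In bulk tissue fewer cells of a type and less RNA per cell cannot be told apart.

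**Figure D1:**
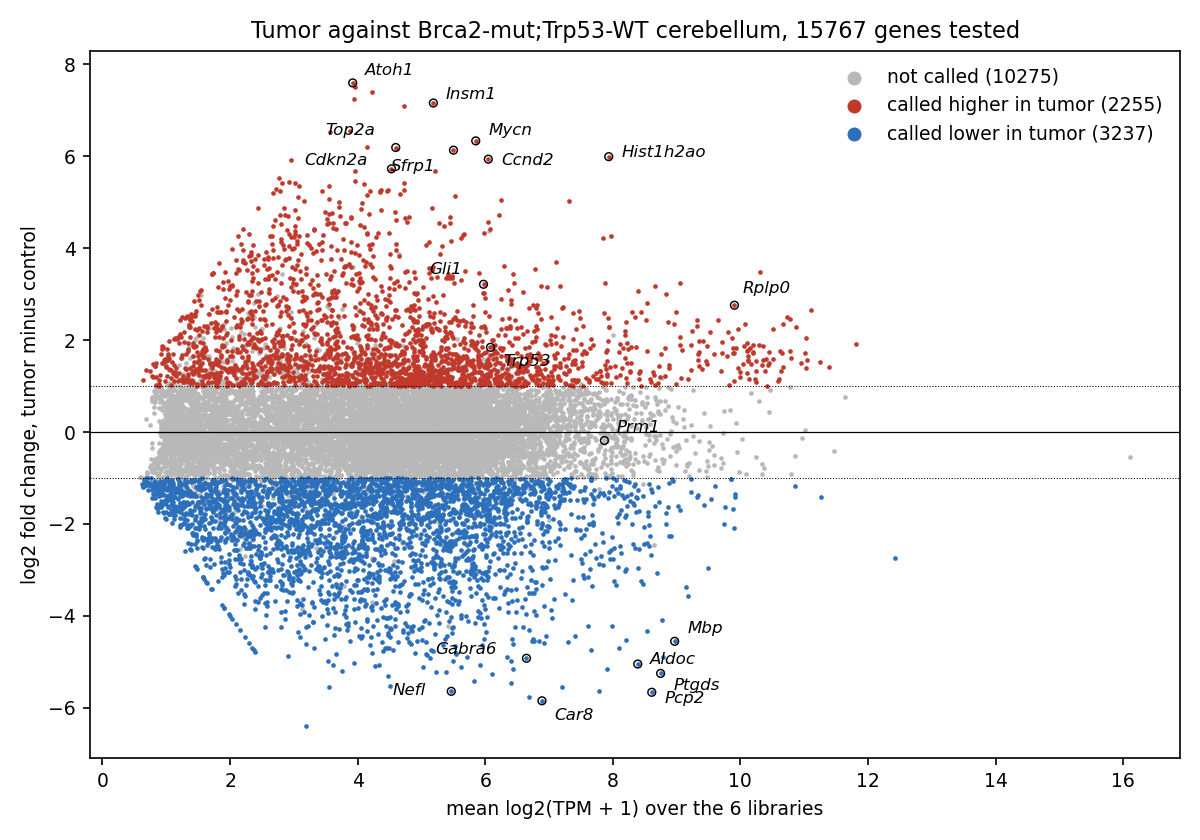
Mean level (x axis, mean log2(TPM + 1) over 6 libraries) against the log2 fold change of tumor minus control (y axis) for each of the 15767 genes tested, with the 2255 genes called higher and the 3237 called lower in color. Labelled genes include Atoh1 at 7.60 and Car8 at -5.85.

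Genes known from granule cell progenitors and immature neurons were among the steepest rises. Atoh1 (chr6:64729125-64731245), the transcription factor that specifies granule cell progenitors, was listed at 118.9, 244 and 319 TPM in the tumors and 0.212, 0 and 0.0689 TPM in the controls. It was at or near 0 in all controls and rose by 7.60 ± 0.35 on the log2 scale (adjusted p = 1.7e-05). Nhlh1 and Insm1, factors of newly forming neurons, rose by 7.52 ± 0.21 and 7.16 ± 0.22. Igfbpl1, a secreted protein of progenitors, was listed at 175, 322 and 247 TPM in the tumors and 0.472, 0.304 and 0.537 TPM in the controls (log2 fold change 7.40 ± 0.23). Draxin, a repulsive axon guidance protein, rose by 7.09 ± 0.53, and Islr2, which acts in axon growth, by 6.20 ± 0.41. Otx1, a homeobox factor, rose by 6.56 ± 0.19, and Sfrp1, a secreted WNT antagonist, by 6.13 ± 0.54. Hsd11b2, the enzyme that inactivates glucocorticoids, was listed at 52.9, 407 and 314 TPM in the tumors and 0.439, 0.132 and 0.204 TPM in the controls. It rose by 7.25 ± 0.71 although its level in GB344 was far below that of the other 2 tumors. Tecta, a matrix protein best known from the inner ear, was listed at 65.8, 156 and 139.9 TPM in the tumors and 0.204, 0.0194 and 0.498 TPM in the controls, a rise of 6.54 ± 0.34. Among the 15 largest rises were 2 short features whose levels are uncertain. The histone gene Hist1h2ao belongs to a family of near-identical copies and stood at 2133, 1919.6 and 1818 TPM in the tumors and 17.2, 20.4 and 73.4 TPM in the controls, and Mir6922 was listed at 0 in all controls and at 39.3, 83.4 and 62.7 TPM in the tumors.

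Genes known from Purkinje neurons, myelin and mature axons were among the steepest falls. Car8, a carbonic anhydrase relative of Purkinje cells, stood at 5.34, 22.4 and 24.7 TPM in the tumors and 1067, 872 and 779.8 TPM in the controls (log2 fold change -5.85 ± 0.51, adjusted p = 7.0e-05). Every tumor lay far below every control, with GB344 lowest. Pcp2, a Purkinje-specific G protein modulator, Calb1 (calbindin) and Ppp1r17, an inhibitor of phosphatases, had log2 fold changes of -5.66, -5.55 and -5.43. Rgs8 and Gng13, both parts of G protein signaling, had log2 fold changes of -5.76 ± 0.46 and -5.63 ± 0.70. The neurofilaments Nefl and Nefh, which fill large axons, were listed at 2.23, 6.87 and 8.67 TPM in the tumors and 309, 319 and 307 TPM in the controls for Nefl, and their log2 fold changes were -5.64 ± 0.38 and -5.30 ± 0.19. Kcng4, a modifier of potassium channels, and Ppp1r1b, the phosphatase regulator DARPP-32, had log2 fold changes of -5.53 and -5.23. Mobp, a myelin protein, was listed at 3.68, 23.9 and 16.5 TPM in the tumors and 717, 529 and 468 TPM in the controls (log2 fold change -5.47 ± 0.58). Ptgds, a prostaglandin synthase of meninges and glia, stood at 15.6, 62.9 and 318 TPM in the tumors and 2288, 3251 and 2519 TPM in the controls. Its level ranged widely among the tumors, and the call of its log2 fold change of -5.25 ± 0.94 was lost without the control GB508 (-5.11). Mir341, a short feature whose level is uncertain, was listed at 0 in all tumors and at 75.6, 77.3 and 97.2 TPM in the controls.

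Genes of the hedgehog pathway moved unequally, with Gli1 and Gli2 higher and the ligand lower. Of 18 genes of the pathway tested, 8 rose and 4 fell, with a median log2 fold change of 0.996. Gli1, the transcription factor and standard readout of the pathway, was listed at 142, 193 and 252 TPM in the tumors and 21.4, 20.04 and 17.6 TPM in the controls. All tumors lay above all controls, and the rise was 3.21 ± 0.21 (adjusted p = 2.6e-05). Gli2, the main activator, rose by 3.66 ± 0.28 from 2.67, 2.92 and 3.75 to 33.9, 52.2 and 73.8 TPM. Smo, the signal transducer, went from 16.1, 16.6 and 17.2 TPM in the controls to 64.3, 101 and 85.9 TPM in the tumors, a rise of 2.24 ± 0.17. Negative regulators rose too, with Hhip, a decoy that binds the ligand, at 1.64 ± 0.18 and Sufu, which holds GLI factors in the cytoplasm, at 1.505 ± 0.36. The call of Sufu was lost in 5 of the 6 fits without 1 library (1.13 without GB359).

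Ptch1 (chr13:63508328-63573460), the ligand receptor and itself a GLI target, did not follow Gli1. It was listed at 146, 237 and 303 TPM in the tumors and 220.2, 184 and 197 TPM in the controls, and GB344 lay below every control while GB359 and GB370 lay above. The log2 fold change of 0.13 ± 0.25 was not called (adjusted p = 0.67) and turned to -0.105 without GB370. Shh itself, made by Purkinje cells, fell from 12.98, 8.63 and 7.34 to 0.672, 0.820 and 0.766 TPM (log2 fold change -2.57 ± 0.22, adjusted p = 6.8e-05). The coreceptors moved apart. Cdon fell, at -2.08 ± 0.20, whereas Boc stood at 69.2, 154 and 209.6 TPM in the tumors and 55.6, 45.2 and 50.3 TPM in the controls and its 1.37 ± 0.37 did not pass the test (adjusted p = 0.015) but did without GB344 (1.82). Spop, an adaptor that marks GLI proteins for degradation, fell (-1.59 ± 0.16). Gli3, the main repressor, was listed at 8.49, 1.55 and 0.724 TPM in the tumors and 2.91, 2.55 and 2.77 TPM in the controls, high in GB344 alone, and was not called. Gas1 stood at 0.14 ± 0.14 and was not called either.

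The marker panels of the medulloblastoma subgroups behaved differently from one another. In the SHH panel 4 of 5 tested genes rose, namely Atoh1, Sfrp1, Pdlim3 (2.34 ± 0.22) and Hhip, and Eya1 stood at -0.43 ± 0.16. Summed over the panel, the level was 325, 827 and 1024 TPM in the tumors and 17.6, 15.5 and 14.9 TPM in the controls. In the Group 4 panel 4 of 5 fell. These were Kcna1 at -3.74 ± 0.46, Eomes at -2.66 ± 0.37, Unc5d at -1.77 ± 0.20 and Khdrbs2 at -1.55 ± 0.16. From the WNT panel Gad1, which inhibitory neurons of the cerebellum also express, fell (-4.98 ± 0.49), while Wif1 (-0.65 ± 0.30) and Tnc (-0.25 ± 0.27, which turned to 0.015 without GB359) were not called. From the Group 3 panel Mab21l2, a developmental regulator, was listed at 5.58, 8.49 and 133 TPM in the tumors and 4.17, 3.80 and 3.83 TPM in the controls, high in GB370 alone. Impg2, the other one tested, stood at 0.12 ± 0.17, and Gabra5, Nrl and Npr3 did not reach the level filter.

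The factors of granule cell progenitors divided into strong rises and genes that were not called. Among 21 tested, 12 rose and 2 fell, with a median of 1.44. Sox11, a factor of immature neurons, went from 1.40, 1.12 and 4.72 to 65.5, 111 and 93.4 TPM (rise 4.85 ± 0.40), and Tead2, a partner of YAP, rose by 5.18 ± 0.15. Barhl1 and Nhlh2, both of the granule lineage, rose by 4.23 ± 0.29 and 3.58 ± 0.14. Dcx, the microtubule protein of migrating neurons, was listed at 61.6, 110.0 and 60.4 TPM in the tumors and 1.48, 1.78 and 2.62 TPM in the controls, and Pax6 rose by 1.01 ± 0.19, a size at the limit that lost its call without GB359 (0.855) or any of 3 others. Lineage factors that granule cells keep through life showed smaller differences. Neurod1 stood at 262, 533 and 391 TPM in the tumors and 416, 297 and 355 TPM in the controls, and Zic1 stood at 454, 638 and 671 TPM in the tumors and 588, 475 and 542 TPM in the controls. The groups overlapped in both, and neither was called. Meis2 fell, at -1.37 ± 0.19.

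Of 12 genes of the MYC family and its partners 4 rose, the MYC genes themselves and Mxd3. Mycn (chr12:12936093-12941836), the MYC member of granule progenitors, was listed at 1134, 356 and 343.9 TPM in the tumors and 5.41, 4.4002 and 6.67 TPM in the controls. Every tumor was far above the controls, and GB344 stood over the other 2 (rise 6.33 ± 0.45, adjusted p = 3.3e-05). Ddx1 (chr12:13219307-13249174), a helicase gene close to Mycn, was listed at 5175, 159 and 184 TPM in the tumors and 126, 118.6 and 125 TPM in the controls, also with GB344 apart. Mycl rose by 3.86 ± 0.22, Mxd3, the MAX partner of S phase, by 3.78 ± 0.54, and Myc by 2.89 ± 0.54, a call that was lost in 4 of the fits without 1 library (2.62 to 2.68). Max, the shared partner, stood at 121, 120.4 and 156 TPM in the tumors and 144, 121 and 137 TPM in the controls and was not called.

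**Figure D2:**
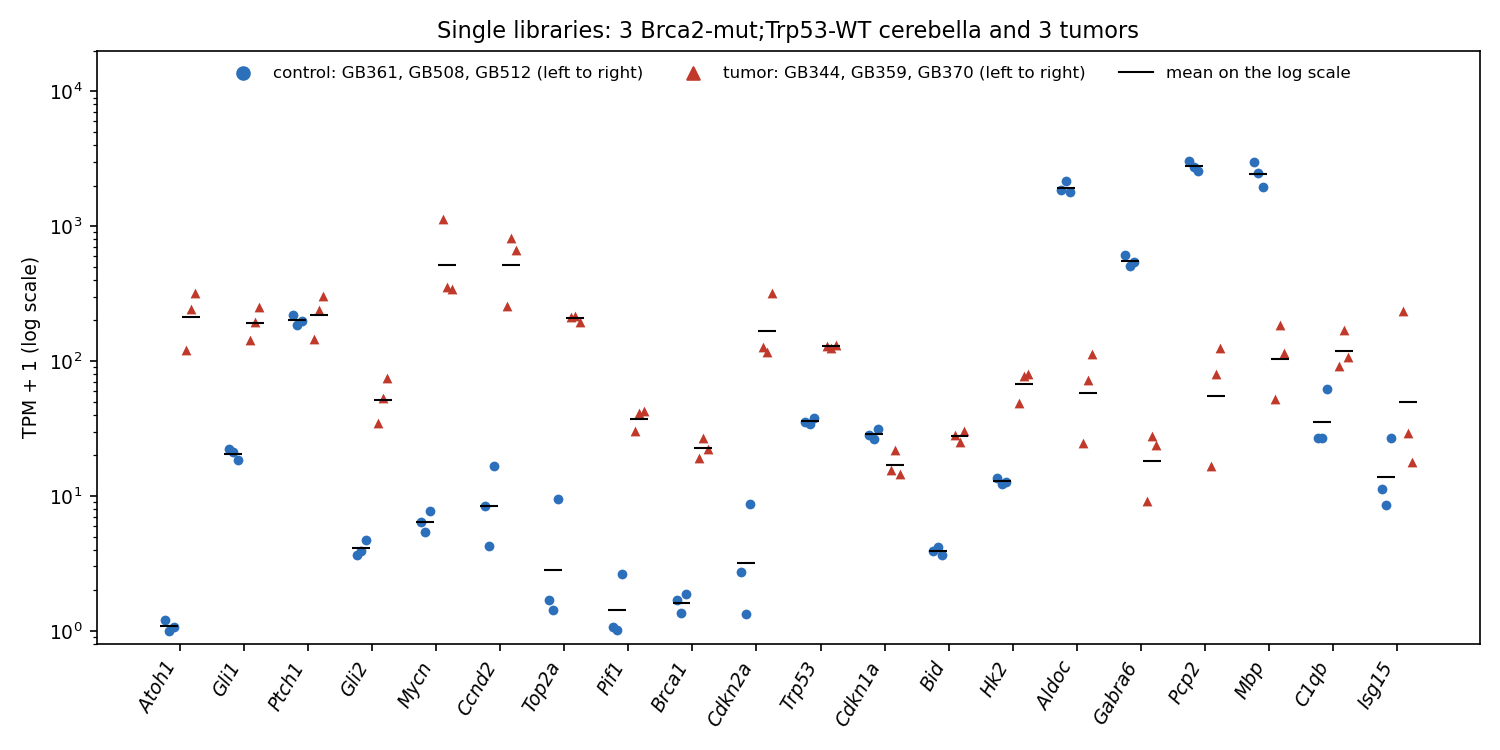
Level of 20 genes in each library (y axis, TPM + 1 on a log scale), controls as circles and tumors as triangles in the order GB361, GB508, GB512 and GB344, GB359, GB370, with a bar at the mean on the log scale. Atoh1, Gli1, Mycn and Pif1 were apart between the groups, the tumors higher, while the groups overlapped in Ptch1 and Isg15.

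Genes of cell cycle entry, DNA replication and mitosis rose in most members examined, and none of them fell. Ccnd2, the D cyclin of granule progenitors, was listed at 254, 823 and 659.6 TPM in the tumors and 7.48, 3.27 and 15.7 TPM in the controls (rise 5.94 ± 0.59, adjusted p = 0.00012). Cdk6 rose by 5.07 ± 0.34, Cdk4 by 3.25 ± 0.18 and Ccnd1 by 3.10 ± 0.17, while Ccnd3 stood at 0.10 ± 0.13 and Rb1 at 0.41 ± 0.17, neither called. The activators E2f1 and E2f2 rose by 4.51 ± 0.22 and 3.64 ± 0.27, and the late repressor E2f8 by 3.91 ± 0.31. E2f4, a repressor of resting cells, stood at 0.59 ± 0.13 and was not called. Of 46 genes of replication licensing and the fork, 41 rose and none fell, with a median of 2.37. Their summed level was 3503, 3997 and 4303 TPM in the tumors and 853, 775 and 945 TPM in the controls. Mcm6 and Mcm3, parts of the replicative helicase, rose by 4.87 ± 0.34 and 4.57 ± 0.31, and Mcm10 and Gins2, which help it start, by 4.08 ± 0.28 and 4.06 ± 0.30. Orc2, Orc3, Orc4 and Orc5 of the origin recognition complex and Rpa1 of the single-strand binding complex were not called, with Orc2 at 0.96 ± 0.15.

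In the mitosis list 36 of 38 genes rose and none fell, with a median log2 fold change of 4.31. Top2a (chr11:98992947-99024199), which untangles sister DNA, was listed at 210.4, 215 and 193 TPM in the tumors and 0.686, 0.431 and 8.42 TPM in the controls, a rise of 6.19 ± 0.66 (adjusted p = 0.00018). Mki67, the proliferation marker, rose by 5.67 ± 0.64, Cdk1, the mitotic kinase, by 5.25 ± 0.44, Aurkb by 5.36 ± 0.39 and Ccna2 by 5.26 ± 0.58. Among the controls GB512 was the highest in Top2a, Mki67, Cdk1, Aurkb and Ccna2. Summed over the list the levels were 3061, 3057 and 3120.1 TPM in the tumors and 127, 160.6 and 343 TPM in the controls, so every tumor exceeded GB512 as well, and without GB512 the count was also 36. Pttg1 (58.9, 135 and 44.3 TPM in the tumors and 5.28, 45.9 and 72.1 TPM in the controls) and Anln, which myelinating cells also express (24.1, 25.7 and 21.5 TPM in the tumors and 19.4, 18.01 and 18.8 TPM in the controls), were the 2 genes not called.

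Promoters of these genes are shown because members of both lists moved together. The sequences are the 120 bases upstream of the start used in the RefSeq promoter windows (GRCm38.p6), read on the coding strand, with searched motifs in capitals.
Top2a, chr11:99024190-99024309, minus strand: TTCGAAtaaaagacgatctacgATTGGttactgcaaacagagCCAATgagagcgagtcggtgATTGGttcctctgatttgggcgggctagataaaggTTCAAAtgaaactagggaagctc
Cdk1, chr10:69352913-69353032, minus strand: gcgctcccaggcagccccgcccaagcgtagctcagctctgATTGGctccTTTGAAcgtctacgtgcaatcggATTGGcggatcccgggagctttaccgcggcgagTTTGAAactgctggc
Mcm6, chr1:128359706-128359825, minus strand: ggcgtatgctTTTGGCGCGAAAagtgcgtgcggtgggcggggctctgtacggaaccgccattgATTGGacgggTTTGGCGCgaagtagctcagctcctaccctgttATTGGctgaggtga
The capitals mark the CCAAT box (CCAAT or its complement ATTGG), the cell cycle homology region, CHR (TTTGAA or TTCGAA, or the complement), and the E2F site (TTTCGCGC, TTTGGCGC or TTTCCCGC, or the complement). In Mcm6 the first marked run holds overlapping matches to the E2F site on both strands. Over promoter windows of 300 bases, the CHR was found in 23 of the 31 mitosis genes that had a sequence (74.2%), against 13.8% of the 11818 tested genes with one. CCAAT and CHR stood together in 19 of the 31 (61.3%, against 5.84%). Replication genes differed, with the E2F site in 15 of 37 (40.5%, against 3.34%) and the CHR in 6 of 37 (16.2%). Only 1 of the 31 mitosis genes (3.23%) had the E2F site. The consensus GLI site GACCACCCA was in none of the 14 hedgehog promoters searched, against 0.203% of those of tested genes. At so low a share 14 promoters cannot show a difference, so nothing is drawn from that count. A match is a description of letters and does not show binding.

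DNA repair genes rose in part, with the recombination genes ahead of end joining. Of 32 homologous recombination and Fanconi anemia genes, 21 rose and none fell, with a median of 1.58. Brca1, which acts ahead of BRCA2 in this repair, was listed at 18.2, 25.7 and 21.4 TPM in the tumors and 0.688, 0.354 and 0.862 TPM in the controls (rise 3.80 ± 0.20). The resection nuclease Exo1 rose by 3.72 ± 0.24 and Fancd2 by 3.61 ± 0.26. Palb2, whose protein joins BRCA1 to BRCA2, rose by 1.56 ± 0.22. Nbn, of the complex that senses breaks, stood at 0.23 ± 0.17 and was not called. Among 16 genes of end joining and PARP, 4 rose, namely Xrcc5 (1.86 ± 0.11), Xrcc1 (1.10 ± 0.13), Parp1 (1.07 ± 0.11) and Lig3 (1.04 ± 0.15), the last lost without GB344 (0.983) or without GB508 (0.929). Polq, the polymerase of microhomology-mediated joining, stood at 13.6, 17.6 and 17.3 TPM in the tumors and 8.65, 6.33 and 8.50 TPM in the controls. Its log2 fold change of 0.96 ± 0.18 lay just under the size limit (adjusted p = 0.003), with the groups apart, and over it without GB344 (1.08). Prkdc, the kinase of end joining, stood at 11.4, 12.97 and 14.04 TPM in the tumors and 13.5, 11.1 and 12.99 TPM in the controls and was not called.

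Members of a list of G-quadruplex and RecQ family helicases differed among themselves. G-quadruplexes are DNA structures formed by runs of guanine. Pif1 (chr9:65587150-65595967) was listed at 29.2, 40.2 and 41.4 TPM in the tumors and 0.0620, 0.0218 and 1.64 TPM in the controls, with the groups far apart (rise 4.72 ± 0.38, adjusted p = 5.4e-05). Dna2 rose by 2.43 ± 0.20, Ddx11 by 2.39 ± 0.17, Blm by 1.86 ± 0.15, Recql4 by 1.68 ± 0.20, Wrn by 1.30 ± 0.22 and Dhx9 by 1.06 ± 0.11 (0.971 and not called without GB508). The other 8 of the 15, among them Fancm (0.24), Dhx36 (0.25), Brip1 (0.29) and Rtel1 (0.67), were not called. The topoisomerase Top3a and its partner Rmi2, which dissolve crossed DNA with BLM, rose by 1.37 ± 0.14 and 1.53 ± 0.16, while Top1 and Top2b stood at 0.69 ± 0.15 and 0.63 ± 0.12 and Top1mt, the mitochondrial form, at -0.93 ± 0.19. Among checkpoint genes 9 of 16 rose and none fell. Chek1, the kinase of replication stress, rose by 3.32 ± 0.22, Chek2 by 2.66 ± 0.20 and the phosphatase Cdc25c by 4.05 ± 0.28, whereas Atr stood at 0.62 ± 0.16 and was not called.

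Targets of p53 split in both directions. Of 32 tested 8 rose, beside 14.3% of all genes, and 6 fell (18.8%, beside 20.5%). The counts went to 5 rises without GB512 and to 3 falls without GB361, and the median of 0.16 turned to -0.107 without GB508. Cdkn1a (p21), the best known target, was listed at 14.6, 21.01 and 13.5 TPM in the tumors and 27.5, 25.5 and 30.3 TPM in the controls. All tumors lay below all controls, and the log2 fold change of -0.75 ± 0.19 did not reach the size limit (adjusted p = 0.01). Ccng1 and Phlda3 fell, at -1.14 ± 0.16 and -1.53 ± 0.17, and Zmat3, a splicing regulator, fell (-1.05 ± 0.14), a size that went under the limit without GB361 (-0.959). Mdm2, which degrades p53, stood at 43.8, 45.9 and 54.1 TPM in the tumors and 41.1, 31.8 and 37.9 TPM in the controls and Bax, which permeabilizes mitochondria, at 0.83 ± 0.12, and neither was called. Gtse1 (3.75 ± 0.29), a gene of G2 and mitosis, Pidd1 (2.92 ± 0.20), Eda2r (2.62 ± 0.28) and Apaf1 (1.61 ± 0.16), which forms the apoptosome, led the rises. Of the p53 family Trp73 stood at 6.75, 1.57 and 0.427 TPM in the tumors and 4.97, 3.30 and 3.42 TPM in the controls, wide among the tumors, and was not called.

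Of 8 CDK inhibitor genes 4 rose and none fell. Cdkn2a (chr4:89274473-89294619), which encodes p16 and p19ARF, was listed at 126, 115 and 321 TPM in the tumors and 1.73, 0.342 and 7.74 TPM in the controls. It was low in every control, highest in GB512, and rose by 5.73 ± 0.70 (adjusted p = 0.00034). Cdkn2c, an inhibitor of granule progenitors, rose by 3.13 ± 0.35, Cdkn2b by 3.11 ± 0.19 and the phosphatase Cdkn3 by 3.48 ± 0.31. Cdkn2d, of the same INK4 class as Cdkn2a, stood at 46.2, 60.9 and 55.4 TPM in the tumors and 53.9, 58.9 and 61.2 TPM in the controls and was not called. Cdkn1b (p27) was listed at 178, 301 and 250.2 TPM in the tumors and 144, 124 and 137 TPM in the controls and was not called. In the BCL2 family 6 of 15 genes rose, led by Bok (3.02 ± 0.22), Bid (2.83 ± 0.15) and Bcl2l11 (2.05 ± 0.18), all of the class that promotes cell death, and Bcl2l2, which prevents it, fell (-1.87 ± 0.15). Bcl2 itself stood at 5.55, 5.36 and 6.79 TPM in the tumors and 5.79, 6.24 and 7.004 TPM in the controls.

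Most ribosomal protein and nucleotide synthesis genes rose. Of 49 cytosolic ribosomal protein genes 48 rose, and Rps23 (0.84 ± 0.13) was the exception. They made up 9.65% of all TPM in the tumors and 2.95% in the controls. Rplp0 rose the most, by 2.76 ± 0.14, and many of these genes have processed copies that can share reads. Of 24 enzymes of nucleotide and folate synthesis 19 rose, with Tk1 (thymidine kinase) at 5.01 ± 0.36, Rrm2, which makes deoxynucleotides, at 4.69 ± 0.57, and Shmt1 at 3.10 ± 0.16.

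Most glycolytic genes fell, with 13 of 20 lower, 2 higher, and a summed level of 7298, 5809.8 and 8038 TPM in the tumors and 14116, 14970.4 and 14453 TPM in the controls. Aldoc, the aldolase of astrocytes and Purkinje cells, was listed at 23.5, 71.5 and 111 TPM in the tumors and 1859, 2146 and 1803 TPM in the controls (log2 fold change -5.05 ± 0.50), and Eno2, the enolase of neurons, stood at -4.44. Pfkm, the muscle and brain phosphofructokinase, fell (-2.85 ± 0.26). Hk2, the inducible hexokinase, rose from 12.6, 11.3 and 11.7 to 48.3, 76.6 and 78.7 TPM (2.39 ± 0.20) while Hk1, the constitutive form, fell (-2.63 ± 0.24). Ldha stood at 700.5, 294 and 418 TPM in the tumors and 208, 173 and 204 TPM in the controls, a rise of 1.18 ± 0.29 that lost its call in 5 of the 6 fits without 1 library, with values down to 0.847 without GB344. Gapdh stood at 2086, 2178 and 3246 TPM in the tumors and 3217, 3397 and 3241 TPM in the controls. Of 38 respiratory chain subunits 7 fell and none rose, a share of 18.4% beside the background of 20.5%. In 35 of the 38, however, every tumor lay below every control (background 37.1%), and the sizes were small, with a median of -0.69. Sdha of complex II fell the most, from 374, 389 and 360.9 to 82.5, 84.3 and 88.7 TPM (-2.12 ± 0.09), while Sdhb, Sdhc and Sdhd of the same complex stood at -0.32, -0.42 and -0.28 and were not called.

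Pairs of related genes in which a proliferating or immature form is paired with a mature form were compared within each library, as the log2 ratio of (TPM + 1) of the first to the second. The 13 pairs were picked for shifts known in neural development, with earlier results of these data known, so their common direction is a description and supports nothing. Ezh2 and Ezh1, the 2 methyltransferases of Polycomb complex PRC2, went from a mean log2 ratio of -2.05 in the controls to 2.41 in the tumors, with Ezh2 at 108, 161.4 and 156 TPM in the tumors and 12.6, 8.14 and 16.9 TPM in the controls. The fall of Ezh1 (-1.02 ± 0.17) lay at the size limit and lost its call without any 1 of 4 libraries (-0.891 without GB344). Actl6a and Actl6b, the actin-like subunits of the progenitor and neuronal BAF complex, went from -1.78 to 1.16. Ptbp1 and Ptbp2, splicing repressors of progenitors and of early neurons, went from -0.74 to 1.41. Slc12a2 and Slc12a5, which import and export chloride, went from -2.34 to 1.61. Slc12a2 did not rise, at 29.0, 37.9 and 20.7 TPM in the tumors and 62.9, 53.2 and 52.5 TPM in the controls. Its log2 fold change of -0.96 ± 0.22 was not called, but it was called lower without GB359 (-1.16). The ratio turned because Slc12a5 fell further (-4.90 ± 0.46). Grin2b and Grin2c, the immature and mature NMDA receptor subunits of granule cells, shifted from -5.70 to -2.40, since Grin2c fell (-3.56 ± 0.28) while Grin2b stood at -0.25 ± 0.26.

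**Figure D3:**
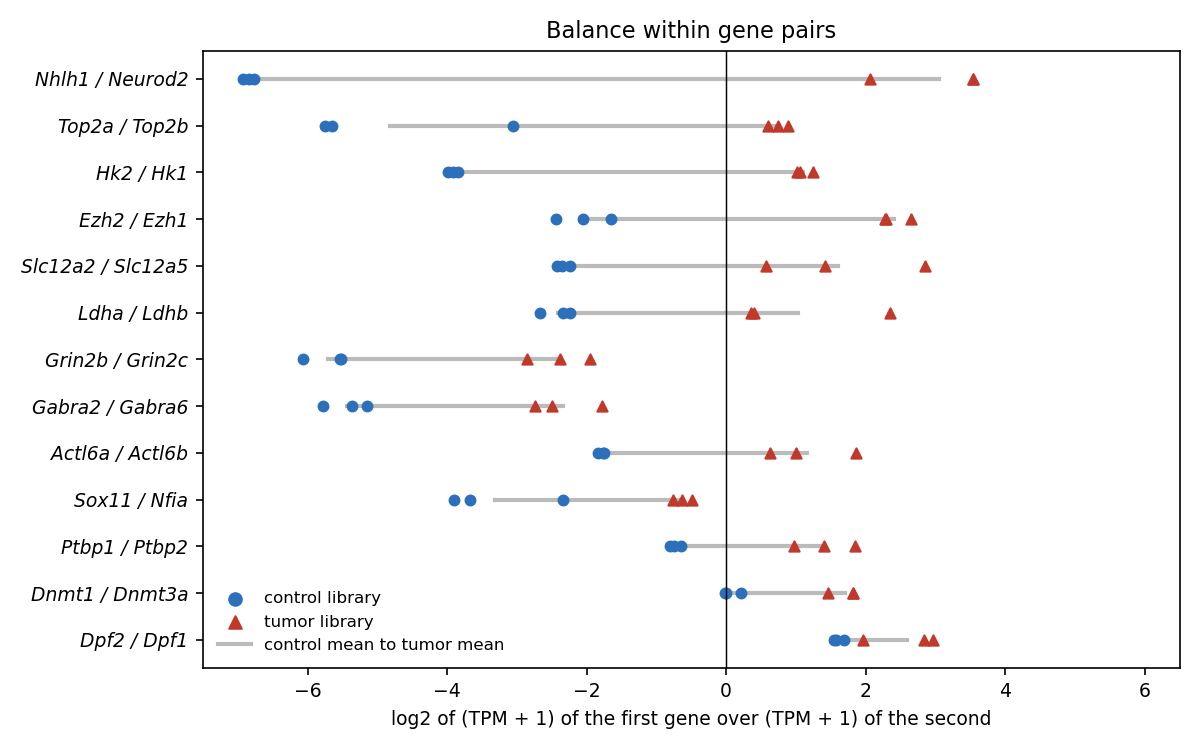
Log2 ratio of (TPM + 1) of the first to the second gene of 13 pairs (x axis), each library as a point and a grey line from the control mean to the tumor mean. The widest shift is that of Nhlh1 over Neurod2, which went from -6.84 to 3.04.

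Further chromatin and RNA-binding genes moved in part. Uhrf1, which guides maintenance DNA methylation, rose by 5.15 ± 0.45, Dnmt1 by 1.51 ± 0.15, Tdg by 1.83 ± 0.11 and Dnmt3b by 1.81 ± 0.21, while Dnmt3a, the neuronal de novo methyltransferase, stood at -0.12 ± 0.15 and turned to 0.008 without GB344. In the PRC2 list only Ezh2 and Rbbp4 (1.51 ± 0.14) rose and Ezh1 and Phf1 (-1.06 ± 0.14, not called without GB344, at -0.935) fell. The neural splicing factor Rbfox1 fell (-2.47 ± 0.22), Elavl2 and Msi1, RNA-binding proteins of neural progenitors and young neurons, rose by 1.96 ± 0.13 and 1.65 ± 0.12, and Elavl4, of postmitotic neurons, stood at -0.50 ± 0.31 and was not called.

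Most markers of mature cerebellar neurons fell, in each of the neuron classes examined. Of 14 Purkinje cell markers all 14 fell, with a median of -4.93. Their summed level was 322, 482 and 633 TPM in the tumors and 13502, 13062 and 11476 TPM in the controls, a mean 26.5 times higher in the controls. Of 16 markers of mature granule cells 14 fell (median -3.38). Gabra6, the GABA-A subunit found almost only in granule neurons, was listed at 8.11, 26.9 and 22.7 TPM in the tumors and 611, 505 and 541 TPM in the controls (log2 fold change -4.92 ± 0.39, adjusted p = 5.1e-05), and Cbln3, a secreted synapse organizer, stood at -4.59 ± 0.53. Reln, which granule cells and their progenitors secrete, did not fall, at 99.8, 279 and 273 TPM in the tumors and 118, 101 and 107 TPM in the controls. All 10 interneuron markers fell, led by the transmitter genes Slc32a1 (-5.11 ± 0.51), Gad1 (-4.98 ± 0.49) and Gad2 (-4.45 ± 0.29). Unipolar brush cell markers fell in 4 of 5, among them Calb2 and Plcb4, which Purkinje or granule cells also express, and Eomes, at 3.39, 2.44 and 1.71 TPM in the tumors and 28.6, 11.4 and 27.3 TPM in the controls.

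Synaptic and channel genes showed the same direction in most members. GABA-A receptor subunits fell in 10 of 12, glutamate receptor subunits in 9 of 16, synaptic vesicle genes in 20 of 23 and voltage-gated channels in 19 of 24. Gria1 and Grin1, the obligatory NMDA subunit, fell, at -4.17 ± 0.34 and -3.52 ± 0.24, whereas the kainate subunit Grik5 stood at 0.13 ± 0.12 and was not called. Syt1 and Syt2, the calcium sensors of transmitter release, fell, at -3.94 ± 0.18 and -4.51 ± 0.22. Stx1a, a syntaxin of the release machinery, was the only member of these 4 lists called higher, from 2.67, 2.45 and 3.61 to 25.3, 25.2 and 28.3 TPM (2.81 ± 0.17). The sodium channel subunit Scn4b fell, at -4.99 ± 0.28, and Scn3a, the channel of developing neurons, stood at 0.99 ± 0.30 and was called only without GB344 (1.31). Summed over each of these lists GB344 held the lowest level of the 3 tumors, as for voltage-gated channels, at 286, 543 and 474 TPM in the tumors and 4004, 3785 and 3811 TPM in the controls.

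**Figure D4:**
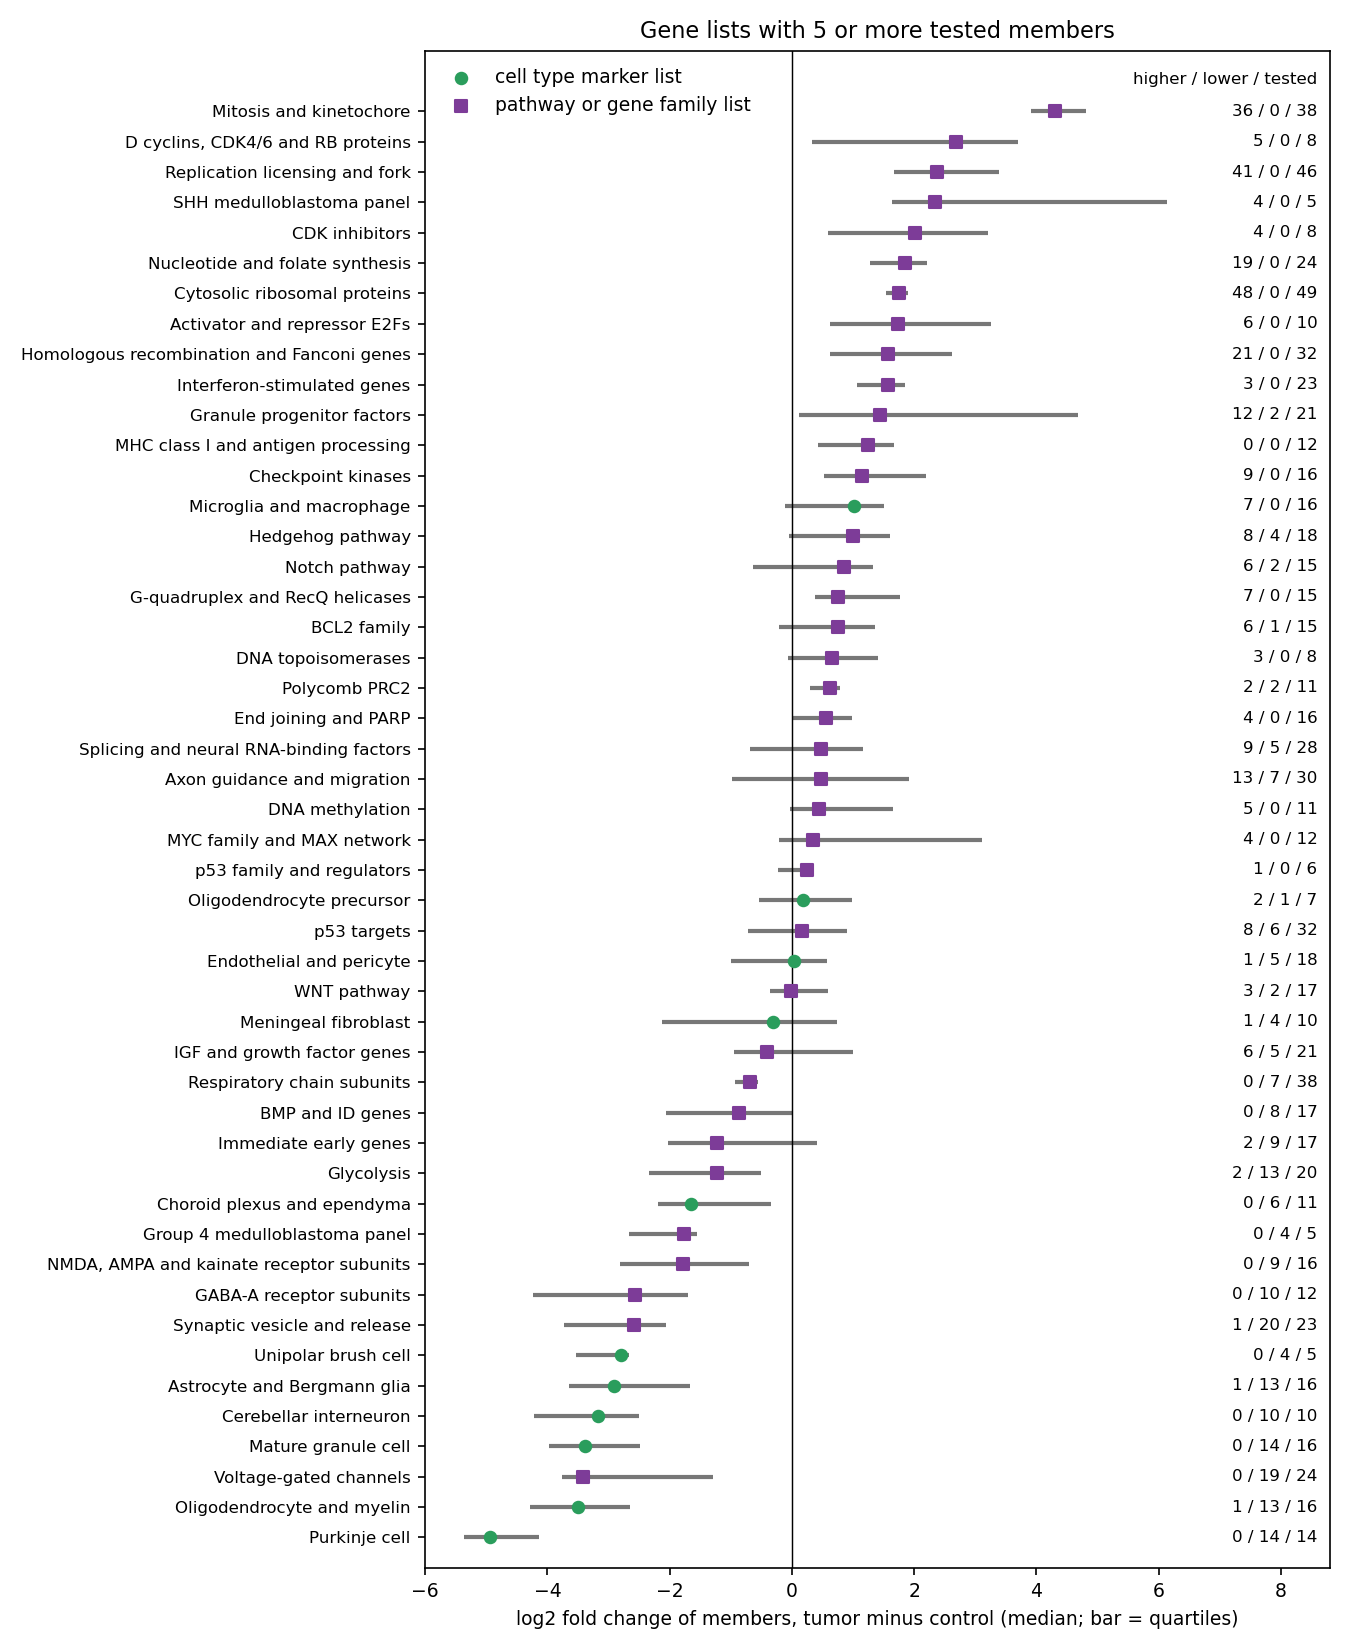
Median log2 fold change of tumor minus control (x axis) for each gene list with 5 or more tested members, with a bar from the first to the third quartile and, at the right, how many members were called higher, called lower and tested. Mitosis lies highest, at a median of 4.31, and Purkinje cell markers lowest, at -4.93.

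Most markers of astrocytes and myelin fell as well. Astrocyte and Bergmann glia markers fell in 13 of 16, led after Aldoc by the gap junction gene Gjb6 (-4.27 ± 0.38) and by Gdf10, a marker of Bergmann glia (-4.04 ± 0.20). Gfap was listed at 160.8, 193 and 79.3 TPM in the tumors and 157, 117 and 162 TPM in the controls and was not called. Sox9, a factor of glia and progenitors, rose by 1.04 ± 0.21, a call lost without GB359 (0.854), GB508 (1.02) or GB512 (0.942), and Fabp7, the fatty acid binding protein of radial glia, stood at 245, 375 and 193 TPM in the tumors and 147, 87.6 and 152 TPM in the controls and was not called. Myelin and oligodendrocyte genes fell in 13 of 16, with Mbp (myelin basic protein) listed at 50.9, 184 and 115 TPM in the tumors and 2982, 2479 and 1938 TPM in the controls (log2 fold change -4.55 ± 0.43). Olig2, a lineage factor, was listed at 64.1, 73.1 and 85.6 TPM in the tumors and 15.998, 15.1 and 47.1 TPM in the controls and rose (1.66 ± 0.41), with GB512 far above the other controls, and the call was lost in all fits without 1 library (1.39 to 1.76) except the one without GB512. Olig1 stood at 78.8, 129.8 and 128 TPM in the tumors and 88.4, 75.3 and 149 TPM in the controls. Of 7 precursor markers 2 rose, 1 fell and 4 were not called. Pdgfra rose from 8.20, 9.17 and 11.7 to 53.3, 172 and 193 TPM (3.53 ± 0.46) and Cspg4 (NG2) rose by 1.48 ± 0.28, a call lost without GB361 (1.48) or GB508 (1.30). Enpp6, of newly forming oligodendrocytes, fell (-1.96 ± 0.25), and Neu4 stood at -0.54 ± 0.30. The median of that list, 0.18, turned to -0.07 without GB344.

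Microglial genes moved unequally. Of 16 markers 7 rose and none fell, but the count went to 4 without GB359, 3 without GB370 and 2 without GB361 or GB508. The list had a median of 1.01 and a summed level of 619.5, 1086 and 734 TPM in the tumors and 342, 283 and 490.1 TPM in the controls. Cd68, the lysosomal marker of phagocytes, was listed at 26.1, 47.2 and 41.8 TPM in the tumors and 5.98, 5.29 and 9.54 TPM in the controls and rose by 2.31 ± 0.28, Aif1 (IBA1) rose by 1.87 ± 0.27, and C1qb, a complement component, by 1.74 ± 0.37, a call lost in 4 of the 6 fits without 1 library (1.49 to 1.81). Among the 9 members not called were Tmem119 at -0.38, P2ry12 at -0.86 (called lower without GB359, -1.25) and Cx3cr1. The level of Cx3cr1 was 8.22, 15.2 and 10.4 TPM in the tumors and 11.01, 9.001 and 11.5 TPM in the controls. Endothelial and pericyte genes fell in 5 of 18 (3 without any 1 control), 27.8% beside the background of 20.5%. Among them were the blood-brain barrier transporters Abcb1a (-1.95 ± 0.30) and Slco1a4 (-1.59 ± 0.34, a call lost without any 1 control, -1.55 to -1.67). Ly6c1 fell too (-1.68 ± 0.27). The endothelial markers Cldn5 and Pecam1 stood at 0.50 ± 0.17 and -0.21 ± 0.21 and were not called. Lymphocyte genes were low, and 3 of 12 reached the filter. Cd3d was listed at 23.3, 31.9 and 44.1 TPM in the tumors and 9.39, 5.20 and 6.05 TPM in the controls, a rise of 2.10 ± 0.28, but Cd3e, Cd3g and Cd8a, which T cells also express, did not reach the level filter.

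Choroid plexus and ependymal genes fell in 6 of 11 (5 without GB361, where 1 rose). Ttr was listed at 3.44, 7.52 and 9.15 TPM in the tumors and 842, 9.60 and 11.8 TPM in the controls, and the group difference of -2.74 ± 1.58, not called, came with GB361 far above the other 2 controls. Enpp2, which oligodendrocytes also express, stood at 10.01, 15.8 and 13.7 TPM in the tumors and 298, 96.9 and 80.7 TPM in the controls (log2 fold change -3.26 ± 0.47). Meningeal genes split, with Col3a1 rising by 2.87 ± 0.65, a call lost in 4 of the fits without 1 library (2.78 to 2.96), and 4 of 10 falling. The median of -0.30 turned to 0.336 without GB359. Hemoglobin RNA, a measure of blood, was lower in the tumors, with Hbb-bs at 36.9, 81.6 and 243 TPM in the tumors and 554, 458 and 466 TPM in the controls. The call of Hbb-bs was lost in 4 of the 6 fits without 1 library (-2.34 to -2.48). The part of blood, meninges and choroid plexus in other results was not tested.

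Interferon-stimulated and antigen presentation genes had medians above 0 but few members called. Of 23 interferon-stimulated genes 3 rose (4 without GB512), 13.0% against the background of 14.3%, although the median was 1.57. The called genes were the DNA sensor Mb21d1 (cGAS, 2.30 ± 0.31), Tmem173 (STING, 2.21 ± 0.16) and Ifit2 (1.44 ± 0.33), the last lost in 5 of the 6 fits without 1 library (1.23 to 1.57). Tmem173 was listed at 12.8, 15.5 and 12.9 TPM in the tumors and 2.14, 1.93 and 2.46 TPM in the controls. Isg15 was listed at 236, 28.5 and 16.9 TPM in the tumors and 10.3, 7.61 and 25.8 TPM in the controls, high in GB344 among the tumors and in GB512 among the controls, and was not called (adjusted p = 0.12). The sums over the list showed the same libraries apart, at 1513, 576 and 376 TPM in the tumors and 251, 195 and 543 TPM in the controls. None of the 12 MHC class I and antigen processing genes was called (median 1.24). For B2m, the shared light chain, the values were 1067, 793 and 329 TPM in the tumors and 302, 222 and 357 TPM in the controls, with GB370 within the control range, and without GB370 7 genes of the list were called, among them B2m (1.67), H2-K1 (2.31), Nlrc5 (2.30), Psmb8 (2.80) and Psmb9 (2.35).

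Guidance and signaling genes outside the hedgehog pathway moved gene by gene. Of 30 genes of axon guidance and migration 13 rose and 7 fell. Cxcr4, the chemokine receptor that holds granule progenitors in the outer layer, was listed at 154, 238 and 178 TPM in the tumors and 9.98, 4.66 and 7.35 TPM in the controls (rise 4.55 ± 0.27, adjusted p = 2.1e-05). Its ligand Cxcl12 stood at 13.03, 20.2 and 16.4 TPM in the tumors and 33.97, 35.4 and 31.3 TPM in the controls and was not called. Dcc, a netrin receptor, rose by 4.42 ± 0.31, while the netrin receptors Unc5a, Unc5b, Unc5c and Unc5d fell, at -2.97, -1.47, -1.49 and -1.77. Robo3, a receptor of migrating hindbrain neurons, was listed at 68.7, 10.6 and 4.86 TPM in the tumors and 0.239, 0.351 and 0.367 TPM in the controls, above all controls in each tumor but with a wide range, and its rise of 3.67 ± 0.81 lost its call without any 1 of 4 libraries (3.63 to 3.94).

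In the Notch pathway 6 genes rose and 2 fell of 15 (40.0% and 13.3%, beside 14.3% and 20.5% of all genes). Dll3, an inhibitory ligand, went from 2.02, 1.09 and 5.70 to 134, 55.4 and 20.4 TPM (3.97 ± 0.70, lost without GB361, 3.87, or GB508, 3.60), Hey1 rose by 1.89 ± 0.23 and Jag1 by 1.70 ± 0.25, while Jag2 fell (-1.43 ± 0.16). Of 17 WNT pathway genes 3 rose (17.6%, beside 14.3%) and 2 fell (11.8%, beside 20.5%), with a median of -0.02. Axin2, the general readout of WNT signaling, stood at 10.3, 18.8 and 14.03 TPM in the tumors and 14.9, 12.999 and 14.8 TPM in the controls and was not called, whereas Nkd1 and the antagonists Sfrp1 and Sfrp2 rose (3.38 ± 0.38 and 4.28 ± 0.23 for Nkd1 and Sfrp2) and Notum, which inactivates WNT ligands, fell (-2.52 ± 0.15). BMP and ID genes fell in 8 of 17 and none rose. Id4, an inhibitor of differentiation factors, was listed at 5.01, 14.5 and 12.1 TPM in the tumors and 186, 146 and 153.3 TPM in the controls, Nog, the BMP antagonist noggin, fell (-3.18 ± 0.19), and Id1 stood at 94.2, 50.5 and 52.5 TPM in the tumors and 33.0, 20.1 and 32.2 TPM in the controls, apart between the groups but not called (adjusted p = 0.01). Of 21 IGF and growth factor genes tested 6 rose (3 without GB370, GB361 or GB508) and 5 fell. These were 28.6% and 23.8%, beside 14.3% and 20.5% of all genes. Fgfr3 (-3.46 ± 0.22) and Fgfr2 (-2.76 ± 0.21) were lower and Pdgfra and Irs1 (2.64 ± 0.31) higher. Igf1r stood at 0.72 ± 0.25, and Igf2 at 212.2, 12.3 and 29.8 TPM in the tumors and 63.2, 63.6 and 51.9 TPM in the controls. Immediate early genes, which respond to activity and handling, fell in 9 of 17. Fos was listed at 5.74, 9.16 and 6.30 TPM in the tumors and 147, 56.3 and 59.9 TPM in the controls, but Egr2 and Egr3 rose, by 2.18 ± 0.26 and 2.18 ± 0.48, the latter lost in 5 of the 6 fits without 1 library (1.82 to 2.22).

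The tumors differed among themselves more than the controls did. GB344 had 449 genes over 1 log2 unit above the mean of the other 2 tumors and 801 below it, against 354 and 231 for GB359 and 329 and 335 for GB370. For the controls these numbers ran from 96 to 255 above and from 110 to 217 below. Among called genes with the widest range, Gpc3, a glypican that binds hedgehog ligands, was listed at 90.3, 10.04 and 29.4 TPM in the tumors and 1.69, 1.53 and 1.70 TPM in the controls. The call of its log2 fold change of 3.57 ± 0.68 was lost without GB370 (3.59) or without any 1 control (3.54 to 3.58). Krt12, a keratin, stood at 18.6, 37.2 and 209.8 TPM in the tumors and 0.243, 0.385 and 0.356 TPM in the controls, highest in GB370. Fam107a, an actin-binding gene of glia, stood at 4.08, 13.5 and 40.7 TPM in the tumors and 547, 536 and 473 TPM in the controls, lowest in GB344, and D17H6S56E-5 at 58.5, 314 and 37.7 TPM in the tumors and 2.61, 3.82 and 4.13 TPM in the controls, highest in GB359. The Mycn and Ddx1 levels of GB344 given above belong to the same pattern of single tumors standing apart.

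Shifts that ran along whole chromosomes were read as the median difference from the control mean of log2(TPM + 1), over protein-coding genes with a mean of at least 5 TPM. Over all autosomes the medians were -0.084, 0.053 and -0.035 for the 3 tumors, and single chromosomes of single controls ran from -0.142 to 0.144. Chromosome 13, which carries Ptch1, stood below this range in every tumor, at -0.516, -0.350 and -0.434 over 428 genes. In the adjacent cerebellum of the same mice it was at -0.005, -0.022 and -0.042, against 0.132, 0.112 and 0.027 over all autosomes of those libraries. There too it lay below the median of all autosomes, though chromosome 19 was at -0.008 in adjacent GB344. The adjacent libraries also held RNA of genes high in the tumors, with Atoh1 at 59.4, 50.5 and 4.997 TPM and Top2a at 89.8, 49.5 and 5.53 TPM. The part of such RNA in the adjacent chromosome values was not tested. Other chromosomes were low or high in some tumors. Chromosome 19 was at -0.674 in GB344, -0.093 in GB359 and -0.323 in GB370, chromosome 8 was at 0.417 in GB359 alone, and chromosome 6 at 0.260 in GB359 and 0.361 in GB370. With genes of at least 20 TPM the chromosome 13 medians were -0.519, -0.288 and -0.347. DNA copy number was not measured in these files, and its part in the chromosome 13 values was not tested.

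**Figure D5:**
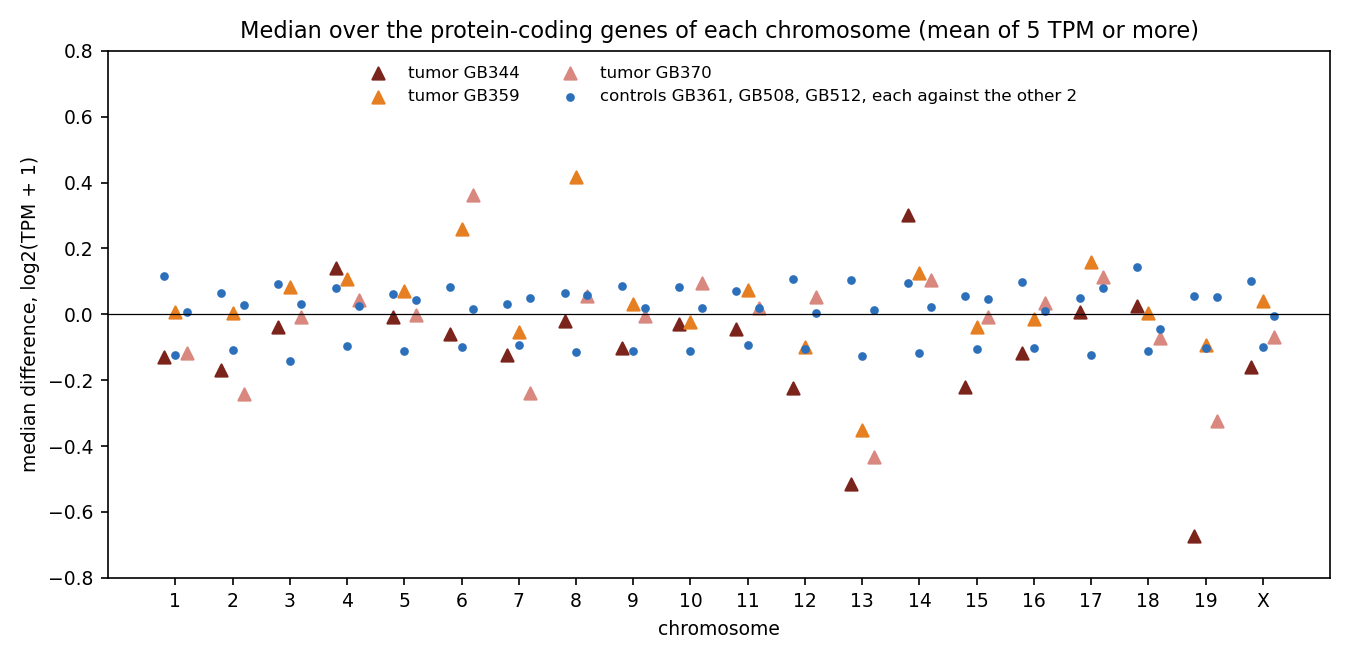
Median difference of log2(TPM + 1) from the control mean over the protein-coding genes of each chromosome (x axis), for each tumor and each control. Chromosome 13 is low in all 3 tumors, at -0.516, -0.350 and -0.434, and the controls lie between -0.142 and 0.144 on all chromosomes.

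The tumors were last set beside the other tumor-free genotype, to see whether a result hung on the choice of control. Against the Brca2-WT;Trp53-mut cerebella, 2163 of 15970 tested genes (13.5%) were higher in the tumors and 3562 (22.3%) lower. Both comparisons share the tumors, so their likeness is no independent support. Between the control genotypes 9 of 15575 tested genes (0.0578%) were called by limma, 2 higher and 7 lower in Brca2-mut;Trp53-WT, with 71 at an adjusted p under 0.05 without a size limit and 3123 at an unadjusted p under 0.05. No member of the gene lists was among the 9. Atoh1 stood at 0.0400, 0.132 and 0.0384 TPM in the Brca2-WT;Trp53-mut cerebella. Of the interferon-stimulated genes 11 rose and 1 fell against the Brca2-WT controls, and 6 MHC class I and antigen processing genes rose. Choroid plexus genes fell in 12 of 14 there, where Ttr ran from 3849 to 5039 TPM.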

How the data were processed

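Tumors and cerebella were lysed in a TissueLyser, RNA was isolated with a Zymo kit, and poly(A) RNA libraries were sequenced with a read length of 75. For quantification the authors ran Salmon 0.8.1 with the mm10 known-gene annotation (TxDb.Mmusculus.UCSC.mm10.knownGene 3.4.0), summed transcripts to genes with tximport 1.20 and deposited TPM per gene and library. TPM corrects for transcript length and library size, but no counts were used here, so the authors' DESeq2 test could not be repeated and depth and counting error are unknown. Strand was not given in the sources used here.

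From the TPM, log2(TPM + 1) was computed, genes that reached 1 TPM in 3 or more of the 6 libraries were kept, and the 2 groups were compared with limma 3.58.1 (R 4.3.3, lmFit and eBayes with trend, two-sided) without covariates, with p-values adjusted by Benjamini-Hochberg over the whole set tested. A gene was called when the adjusted p was under 0.01 and its log2 fold change was 1 or more in size, as in the authors' thresholds. The ± after a log2 fold change is its standard error. The Brca2-mut;Trp53-WT and Brca2-WT;Trp53-mut cerebella were compared in the same way. Summaries and figures used Python 3.11.15, numpy 2.4.6, pandas 2.3.3 and matplotlib 3.10.9.

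The 52 gene lists, the pairs and the tests were chosen with earlier results of these data known. Lists are described by counts and medians beside those of all genes, with no test of the list. Named genes were the 15 largest rises and 15 largest falls with no overlap between groups, the 4 largest changes of each list, Trp53, Brca2, the pair genes, the genes called between control genotypes and the 10 widest among the tumors. Some genes that met these rules are not reported here. Other genes were named after their values were seen. Of 24091 genes listed, 24041 matched RefSeq (GRCm38.p6), which gave positions and promoter windows of 250 bases before and 50 after the start. The procedure was also run on simulated data, with 200 changed genes of 15549 tested. There the tumor comparison found 85 of 100 at a log2 change of 2 and 95 of 100 at 3, with 2 false calls. In the real comparison far more genes were called, 5492 of 15767. The simulated numbers are therefore not the sensitivity or error rate of the real comparison. They were not split by expression level and say nothing on low genes. Alternatives were the pseudocount, the level filter, the scaling, removal of Mir6236, the variance trend, all groups in a single fit, the thresholds and leaving out each library.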

Additional observations from a re-analysis of the deposited data

Results flagged for a closer look

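The 9 genes called between the tumor-free genotypes differed under limma with Benjamini-Hochberg adjustment. The differences below are log2 values of Brca2-mut;Trp53-WT minus Brca2-WT;Trp53-mut. The feature Prm1, named for a protamine gene, differed by 6.381 (adjusted p = 6.3e-06), at 251.5, 200.9 and 302 TPM in the first genotype and 1.64, 2.30 and 2.06 TPM in the other. In the tumors Prm1 stood at 324, 243 and 132 TPM, overlapping the controls of the same Brca2 label (log2 fold change -0.18 ± 0.32), and in the adjacent cerebella at 286, 149 and 181 TPM. The value thus followed the Brca2 label in all 12 libraries, and TPM per gene do not tell transcripts of the gene itself from those of an introduced construct that shares part of its sequence. Gm1821, a predicted gene, differed by 2.019 (adjusted p = 0.00018), at 914, 928 and 900.4 TPM in Brca2-mut;Trp53-WT against 211.8, 209 and 256.7 TPM. The tumors stood at 199.7, 250.3 and 239 TPM and the adjacent cerebella at 199.8, 235.3 and 194.6 TPM, near the Brca2-WT;Trp53-mut values. Gm1821 was thus high only in the Brca2-mut;Trp53-WT cerebella, and its lower level in the tumors was also seen in the adjacent tissue. The cause was not tested.

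Genes lower in the Brca2-mut;Trp53-WT cerebella were Mir7655 (-3.338), Mfrp (-2.903), Mir6922 (-2.837), Prr32 (-2.685), Calml4 (-2.473), Wdr86 (-2.028) and Lbp (-1.43). Their adjusted p ran from 0.0005 for Mfrp to 0.009 for Lbp. The choroid plexus marker Ttr, itself not called, ran from 3849 to 5039 TPM in the Brca2-WT;Trp53-mut cerebella, and its part in these values was not tested. Mir6922, the only one of the 9 also among the largest rises in the tumors, was listed at 0 in the Brca2-mut;Trp53-WT cerebella, at 9.64, 5.24 and 4.49 TPM in the other genotype and at 39.3, 83.4 and 62.7 TPM in the tumors. Mir7655 and Mir6922 are short features whose TPM are uncertain.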

How the results depend on the processing

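The counts of 2255 genes higher and 3237 lower stayed within 1.5 times under each change of pseudocount, filter, scaling, trend and samples, from 2015 to 2619 higher and from 2819 to 3359 lower, and leaving out each library gave 1870 to 2352 and 2850 to 3311. They moved further with the threshold, to 874 higher and 1522 lower with limma's treat against a log2 fold change of 1, and to 4707 and 5294 at an adjusted p under 0.05 without a size limit. With GB361 as the only control, chosen after seeing the data, 691 were called higher and 929 lower, with the lone control assumed to vary like the tumors and fewer samples in the fit. Quantile normalization moved the all-gene median to 0.088 on the log2 scale. The 9 genes between control genotypes became 3 under quantile normalization, 71 at an adjusted p under 0.05 without a size limit, and 4 to 29 without 1 library, the 29 without GB361.

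Of 5098 values of 320 named genes under the alternatives, 4830 kept their direction and call, 213 lost the call, 49 gained it and 6 changed sign. Medians of gene lists that changed sign were those of the p53 targets (-0.107 without GB508, at most 0.243), oligodendrocyte precursor (-0.07 without GB344, at most 0.449) and meningeal genes (0.336 without GB359, at least -1.077). Single genes that changed sign, with their range over these fits, were Tnc (-0.539 to 0.015, the latter without GB359), Prm1 (-0.468 to 0.178, without GB370), Calml4 (-0.07 without GB344, -0.002 without GB359, to 0.451), Dnmt3a (-0.22 to 0.008, without GB344) and Ptch1 (-0.105, without GB370, to 0.419). None of these genes was called in the tumor comparison, and the cause was not tested. MHC class I and antigen processing genes went from 0 to 5 called higher in the fit of all 4 groups, and end joining genes from 4 to 7 under quantile normalization.

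With 3 mice a group and no counts, low genes and short features are the least certain, and a gene not called is not shown to be unchanged. No paired analysis was possible because no label ties a tumor mouse to a control mouse, and the replicate numbers follow accession order.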

Other observations

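Further genes outside the lists changed by large amounts. These were named after their values were seen. Sstr2, a somatostatin receptor that radiolabelled ligands target in neuroendocrine tumors, was listed at 109, 172 and 268 TPM in the tumors and 4.69, 3.35 and 1.67 TPM in the controls, a log2 fold change of 5.41 ± 0.39 (adjusted p = 3.4e-05). All 3 tumors exceeded every control. Olig3, a factor of early hindbrain progenitors, stood at 22.8, 78.3 and 78.6 TPM in the tumors and 0.278, 0.125 and 0.336 TPM in the controls (5.42 ± 0.46), and Cd24a, a surface glycoprotein of immature neurons, at 391, 337 and 417 TPM in the tumors and 10.3, 12.1 and 19.2 TPM in the controls (4.73 ± 0.22). Hmgb2, a chromatin protein of dividing cells, rose by 5.05 ± 0.38. Of the lamins, which line the nucleus, Lmnb1 rose by 4.41 ± 0.21 from 12.02, 10.4 and 19.5 to 312, 294 and 319.6 TPM, whereas Lmna stood at -0.91 ± 0.16 and was called lower only without GB344 (-1.04).

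The secreted demilune cell genes Dcpp1, Dcpp2 and Dcpp3 rose by 5.21, 5.30 and 5.25, and as near-identical copies they may share reads. Nfib and Nfia, factors of granule cell maturation, both rose, by 2.30 ± 0.15 and 2.17 ± 0.20. Otx2, a factor of other medulloblastoma subgroups and of unipolar brush cells, was listed at 0.323, 27.96 and 34.3 TPM in the tumors and 13.4, 11.5 and 14.4 TPM in the controls, lowest in GB344 and above every control in GB359 and GB370, and was not called. Scgb1a1 and Rprl2 were at unequal levels across libraries. Scgb1a1, a secretory protein of the airway, was listed at 42.5, 65.4 and 50.5 TPM in the tumors and 52.01, 0.583 and 0 TPM in the controls, and the nuclear RNA Rprl2 at 28.4, 23.7 and 34.5 TPM in the tumors and 43.01, 0.958 and 0 TPM in the controls, both present in the tumors and in GB361 and near 0 in GB508 and GB512. In the adjacent cerebella Scgb1a1 was at 49.0, 89.1 and 74.8 TPM and Rprl2 at 35.7, 71.3 and 69.3 TPM, and in the Brca2-WT;Trp53-mut cerebella Scgb1a1 was at 0.623, 1.05 and 0 TPM and Rprl2 at 1.02, 0 and 0 TPM. The libraries of the lower mouse numbers, GB344 to GB370, thus stood apart from those of the higher, so GB508 and GB512 differed from the tumors in this as well. What sets these libraries apart was not given in the sources used here, and its part in the comparison was not tested. The values against GB361 alone describe 1 control and share the tumors with the main comparison, so they cannot test it.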
